A study of Mus musculus with 12 samples.

Results

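RNA sequencing of S1 tumorspheres compared control cells with cells whose deposited tables carry the name Rasa1_KO. The comparison took 6 of the 12 libraries of the series, 3 tables named Rasa1_KO and 3 tables named Con, and used every gene in them. S1 is a mouse gastric cancer cell line established from a ChetPS tumor, and tumorspheres are floating spheres grown from dissociated single cells in serum-free medium under shaking. All cells carried Cas9 introduced by a PiggyBac transposon and a lentiviral guide RNA. The control cells of the study carried a non-targeting guide or an intact plasmid backbone, and the methods describe antibiotic-selected cells that were pooled after transduction. The labels call the cell type a monolayer cell, whereas the title of the series and the text of the study describe tumorspheres. The libraries are not stated to come from separate cultures, and the study's own legend for these libraries speaks of technical replication. The p-values below therefore set differences against the spread between libraries, which may not be that between cultures.

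RASA1 (p120 RasGAP) is a GTPase-activating protein that binds Ras and speeds the hydrolysis of its GTP, which returns Ras to the inactive state. When it is lost, GTP-bound Ras accumulates and passes its signal to the RAF, MEK and ERK kinases and to PI3 kinase. NF2 (merlin) is an upstream regulator of the Hippo pathway that restrains the coactivators YAP and TAZ.

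The labels and the table names of the knockout group disagree. The 3 libraries carry the genotype label "Rasa1 KO, Nf2 KO", while their tables are named Rasa1_KO. Their sample titles carry the name Do, so title and label both go against the table name. The 3 libraries with tables named Do carry the label "Rasa1 KO", and those with tables named NF2_KO carry the label "Nf2 KO". The targeted genes were therefore read first, in CPM (counts scaled to a common library size) of the 6 libraries, given throughout in the order unnumbered, _1 and _2 of the table names. Rasa1 (chromosome 13, 85214699 to 85289486, minus strand of GRCm38) stood at 61.6, 76.6 and 80.7 CPM in the control libraries and at 18, 21.1 and 23.8 CPM in the Rasa1_KO-named libraries. All knockout values lay below all control values, and Rasa1 fell by 1.80 on the log2 scale (SE 0.18, n = 3 and 3, adjusted p = 0.0437, edgeR quasi-likelihood test). Nf2 stood at 59.2, 62.4 and 56.9 CPM in the control libraries and at 63.7, 58.8 and 57.6 CPM in the Rasa1_KO-named libraries. The Nf2 groups overlapped, with a log2 difference of 0.01 ± 0.13 (SE, adjusted p = 0.981). In the tables named NF2_KO (labelled Nf2 KO) and Do (labelled Rasa1 KO), Nf2 averaged 13.6 ± 0.631 and 11.9 ± 0.253 CPM (SD, n = 3 each), and the Rasa1_KO-named libraries lay above both (adjusted p = 4.40e-08 and 4.01e-08, 12-library fit). Nf2 was thus low in libraries labelled with a Rasa1 knockout alone and at the control level in libraries labelled with both knockouts. The groups are therefore called by their table names here. This goes against the genotype labels of the Rasa1_KO-named and Do-named libraries and against the titles of the Rasa1_KO-named ones. A library in which Nf2 mRNA is at the control level can still carry an edited Nf2 gene, which a read count does not show.

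Total counts ranged from 43818139 to 96674463 over the 6 libraries, and each table listed 18926 genes with no gene at 0. A gene at 0 in any of the 12 libraries is thus not listed and was not tested. A gene that is not listed can still hold reads in some libraries. The unnumbered control library stood apart from the other control libraries, and the unnumbered Rasa1_KO-named library stood apart from its group in the same genes. Pigr, the receptor that carries IgA across epithelium, was such a gene, at 9.01, 77.0 and 79.0 CPM in the control libraries and 1.87, 16.3 and 16.8 CPM in the Rasa1_KO-named libraries. Deviations from the group means correlated at 0.62 for the unnumbered libraries, 0.54 for the _1 libraries and 0.47 for the _2 libraries over 12398 genes, and genes do not count as replicates. The _1 and _2 libraries correlated about as well crosswise, at 0.45 and 0.48, while unnumbered with numbered libraries correlated at -0.57 to -0.52. The deviations of a group sum to 0 in each gene, so these negative values follow in part from the positive ones. The deviations thus separate unnumbered from numbered libraries and not _1 from _2. Results are given without and with a replicate block by these numbers, called the unblocked and the blocked fit. The blocked fit also sets _1 apart from _2, which the deviations do not call for. A block with only unnumbered against numbered libraries, added after the data were seen, called 839 genes (4.76%), 518 of them higher (2.94%). These 839 held all 346 genes that passed in the blocked fit. All 7 epithelial markers, among them Epcam, Cdh1 and the keratins Krt8 and Krt18, were listed in the tables. Their summed level was 3847 to 6631 CPM in the control libraries and 6495 to 7480 CPM in the Rasa1_KO-named libraries. Krt8, Krt18 and Krt19 made up most of it, at control means of 2306, 1209 and 1016 CPM. These keratins and Krt7 were higher on average in the Rasa1_KO-named libraries. Epcam, Cdh1 and Cldn18 were lower on average, Epcam at 36.7 against 65.8 CPM. None of the 7 passed in the unblocked or the blocked fit. Blood and endothelial markers summed to at most 2.49 and 2.26 CPM in any library, and Cd3e, Adgre1, Itgam, Cdh5, Tek and Emcn were not listed. The 6 fibroblast markers listed (Lum and Thy1 were not) summed to 75.1 CPM in the unnumbered control library against 942 and 758 CPM in the _1 and _2 control libraries, and to 118 CPM against 280 and 273 CPM in the Rasa1_KO-named libraries. Col3a1 made up most of that sum. In bulk RNA, fewer cells of a type and less RNA per cell cannot be told apart.

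The comparison asked which transcripts differed in tumorspheres with low Rasa1. Of 17642 genes tested, 18 passed an adjusted p of 0.05 in the unblocked fit (0.102%), 9 higher and 9 lower, and 23 passed with RLE size factors in place of TMM, 14 higher and 9 lower. All 18 of the TMM fit code for proteins, and none of them overlapped between the groups. Without overlap each of the 3 same-numbered pairs must differ in the direction of the change, so the pairs add no separate evidence. Groups did not overlap in 18.6% of the genes tested. The falls included genes of detoxification, secretion and the epithelial surface. The rises were mixed and included genes of mitochondria, the endoplasmic reticulum and glycogen synthesis, the last with the smallest rise (Gys1). The largest rise, Lratd1, belongs to none of these. The plot shows 17 of these genes by library.

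**Figure D1:**
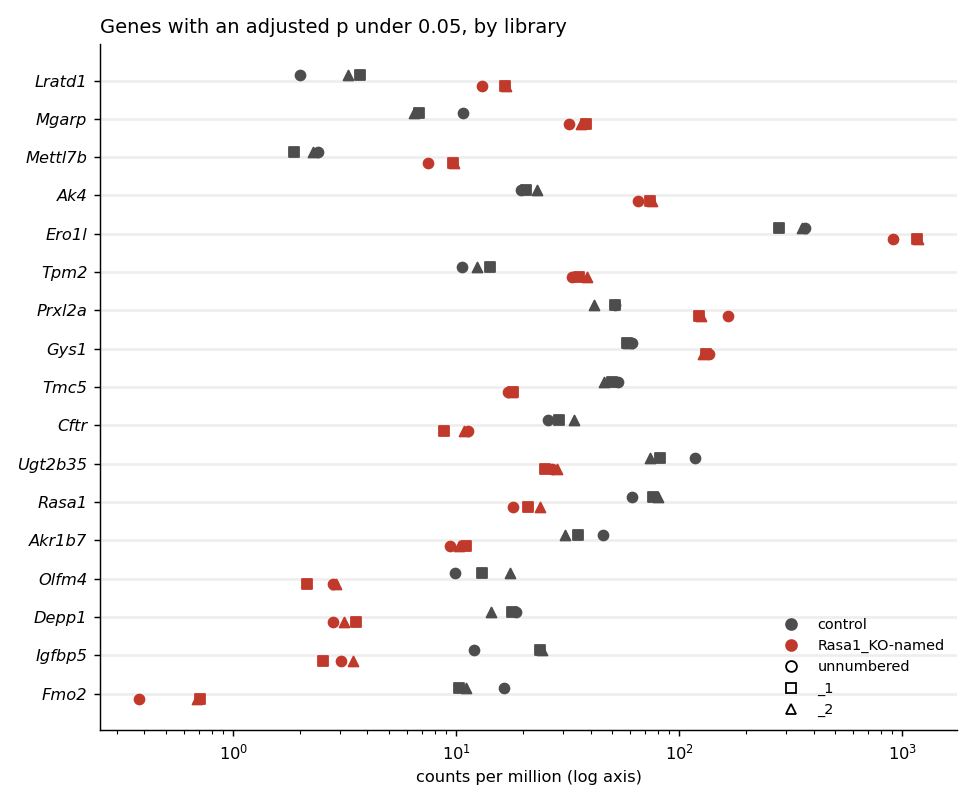
CPM (log axis) of 17 of the 18 genes with an adjusted p under 0.05 in the unblocked fit, in each of 3 control libraries (grey) and 3 Rasa1_KO-named libraries (red), with the marker shape giving the number in the table name. In every gene the 2 groups are apart, from Fmo2, which fell most, to Lratd1, which rose most on the log2 scale.

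Among the genes that fell, Fmo2, which encodes a flavin-containing monooxygenase of xenobiotic metabolism, showed the largest change. It stood at 16.4, 10.3 and 11.1 CPM in the control libraries and at 0.379, 0.711 and 0.692 CPM in the Rasa1_KO-named libraries, a 21.3-fold lower level (log2 -4.41 ± 0.35, SE, adjusted p = 0.0234). Its neighbour Fmo1 on chromosome 1 was at 2.17, 1.31 and 1.85 CPM against 0.356, 0.273 and 0.192 CPM and did not pass unblocked (log2 -2.69, adjusted p = 0.0732), but passed in the blocked fit (adjusted p = 0.0256). Akr1b7, an aldo-keto reductase, fell from 45.6, 35.2 and 30.8 CPM to 9.35, 11.1 and 10.2 CPM (log2 -1.86 ± 0.19, adjusted p = 0.0444). Ugt2b35, a UDP-glucuronosyltransferase, fell from 117, 82.0 and 74.2 CPM to 26.9, 25.1 and 28.3 CPM (log2 -1.77 ± 0.20, adjusted p = 0.0458). It belongs to a cluster of similar genes on chromosome 5, so reads can be shared between the copies and its level is uncertain.

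Igfbp5, a secreted binding protein of insulin-like growth factors, was at 12, 23.9 and 24.3 CPM in the control libraries and fell to 3.04, 2.53 and 3.43 CPM (log2 -2.74 ± 0.31, adjusted p = 0.0458). The unnumbered control library held the lowest control value and still lay above every Rasa1_KO-named library. Olfm4, a secreted glycoprotein used as a marker of gastrointestinal stem cells, fell from 9.92, 13.0 and 17.4 CPM to 2.81, 2.15 and 2.89 CPM (log2 -2.36 ± 0.27, adjusted p = 0.0458). Cftr, the chloride and bicarbonate channel of secretory epithelium, fell from 25.7, 28.8 and 33.8 CPM to 11.3, 8.79 and 10.8 CPM (log2 -1.51 ± 0.18, adjusted p = 0.0466). Tmc5, a transmembrane channel-like protein, was the tightest of the falls, from 53.2, 49.9 and 45.9 CPM to 17.0, 18 and 17.8 CPM (log2 -1.5 ± 0.14, adjusted p = 0.0288). Depp1, a FOXO-induced gene linked to autophagy, fell from 18.4, 17.8 and 14.4 CPM to 2.82, 3.55 and 3.12 CPM (log2 -2.42 ± 0.19, adjusted p = 0.0234).

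Among the genes that rose, Lratd1 showed the largest log2 change, from 1.99, 3.70 and 3.28 CPM to 13.0, 16.5 and 16.7 CPM (log2 2.37 ± 0.27, adjusted p = 0.0458).

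Genes of mitochondria and of the endoplasmic reticulum also rose. Ak4, an adenylate kinase of the mitochondrial matrix, was at 19.5, 20.6 and 22.9 CPM and rose to 65.4, 74.1 and 75.8 CPM (log2 1.77 ± 0.14, adjusted p = 0.0234). Mgarp, a mitochondrial protein rich in glutamic acid, rose from 10.7, 6.78 and 6.48 CPM to 32.1, 38.1 and 36.4 CPM (log2 2.15 ± 0.23, adjusted p = 0.0444). Ero1l, the oxidase that drives disulfide formation in the endoplasmic reticulum, rose from 366, 279 and 354 CPM to 907, 1159 and 1181 CPM (log2 1.70 ± 0.19, adjusted p = 0.0458). The unnumbered library held the lowest Rasa1_KO-named value of Ak4, Mgarp and Ero1l.

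Gys1, the glycogen synthase of most tissues other than liver, rose from 61.1, 58.6 and 58.6 CPM to 136, 132 and 127 CPM, the smallest change among the genes that rose and one with little spread (log2 1.15 ± 0.12, adjusted p = 0.0444). Tpm2, a tropomyosin of actin filaments, rose from 10.7, 14.2 and 12.4 CPM to 33.1, 35.5 and 38.7 CPM (log2 1.53 ± 0.16, adjusted p = 0.0444). Prxl2a, a peroxiredoxin-like protein, rose from 51.3, 51.8 and 41.6 CPM to 166, 122 and 125 CPM (log2 1.51 ± 0.18, adjusted p = 0.0499). Mettl7b, a methyltransferase-like protein, rose from 2.41, 1.86 and 2.28 CPM to 7.48, 9.70 and 9.73 CPM (log2 2.04 ± 0.22, adjusted p = 0.0444).

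The adjusted p-values of the 18 genes lay between 0.0234 and 0.0499, close to the threshold. All 18 kept their direction when any 1 library was left out, which their lack of overlap nearly fixes in advance. However, 0 genes of the whole table passed without Con_1, Con_2 or any of the Rasa1_KO-named libraries (988 to 1754 genes at an unadjusted p under 0.05, edgeR), against 1503 without the unnumbered control library. With the replicate block 346 genes passed (1.96%), 219 higher (1.24%) and 127 lower (0.72%), and with the unnumbered library of both groups left out 2672 passed. All 18 genes and all 346 genes were among those 2672. The rule the study states, at least 3-fold with a raw p under 0.05, took 208 genes (1.18%), 85 higher and 123 lower. Of these, 13 also passed the adjusted p of the unblocked fit and 95 that of the blocked fit.

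**Figure D2:**
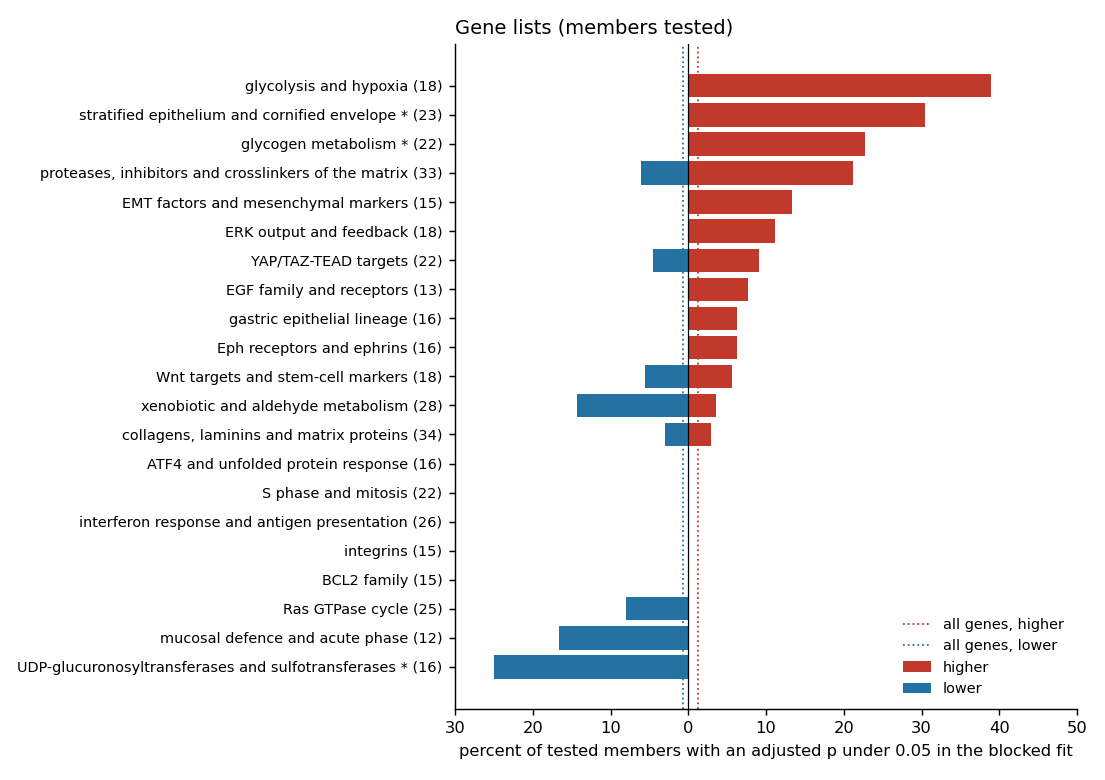
Percent of the tested members of each gene list with an adjusted p under 0.05 in the blocked fit, higher (red, to the right) or lower (blue, to the left) in the Rasa1_KO-named libraries, with dotted lines at the 1.24% and 0.72% of all genes tested. Glycolysis and hypoxia has the longest bar to the right, with 7 of 18 members, and the number of members tested stands behind each name, with a star for a list written after values had been seen.

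The genes of glycolysis and of the response to low oxygen leaned 1 way. All 18 tested members had a positive log2 change, with a median of 0.96 against -0.04 over all genes, and 16 of 18 passed a raw p under 0.05 (5.92% of all genes passed it higher and 5.15% lower, 11.1% in all). In the unblocked fit 0 of 18 passed the adjusted p by edgeR, against 12 by DESeq2, which called 4.81% of the 15985 genes to which it gave an adjusted p. In the blocked fit 7 of 18 passed (1.24% of all genes passed it higher). With the block of unnumbered against numbered libraries 16 of 18 passed (2.94% of all genes higher). Slc2a1, the glucose transporter GLUT1, was at 142, 121 and 126 CPM in the control libraries and at 279, 271 and 275 CPM in the Rasa1_KO-named libraries (blocked log2 1.08 ± 0.14, SE, adjusted p = 0.0220). Hk2, the hexokinase that traps glucose in the cell, was at 149, 168 and 148 CPM against 238, 289 and 283 CPM (blocked log2 0.80 ± 0.14, adjusted p = 0.0431). Gapdh, often used as a reference gene, was at 237, 361 and 349 CPM against 673, 758 and 753 CPM (blocked log2 1.23 ± 0.16, adjusted p = 0.0238). The groups did not overlap in any of the 3.

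Further along the pathway, Pgk1, phosphoglycerate kinase, was at 1123, 769.5 and 600.5 CPM in the control libraries and at 1848, 1757 and 1771 CPM in the Rasa1_KO-named libraries (blocked log2 1.16, adjusted p = 0.0431). Eno1, enolase, was at 825, 700.4 and 587 CPM against 1545, 1258 and 1184 CPM (blocked log2 0.92, adjusted p = 0.0372), and Ldha, the lactate dehydrogenase subunit that favours lactate, at 1117, 750.1 and 566 CPM against 1946, 1647 and 1587 CPM (blocked log2 1.14, adjusted p = 0.0375). In Pgk1, Eno1 and Ldha the unnumbered library was the highest of each group, and the control values spread widely. Egln3, a prolyl hydroxylase that marks HIF proteins for degradation, was at 89.7, 124 and 157 CPM against 280.2, 303 and 282 CPM (blocked log2 1.26, adjusted p = 0.0302). Car9, a carbonic anhydrase and a classical marker of hypoxia, was low, at 1.22, 1.48 and 1.24 CPM against 1.80, 4.77 and 5.54 CPM, and did not pass (blocked adjusted p = 0.0978). Vegfa, the angiogenic growth factor, was at 319.9, 299 and 283 CPM against 307, 419 and 404 CPM, with overlapping groups (blocked adjusted p = 0.400).

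Genes of the same pathway outside the list were chosen after their values were seen, so they give no separate evidence. Slc16a3, the lactate exporter MCT4, was at 8.45, 30.8 and 21.9 CPM in the control libraries and at 75.8, 84.6 and 82.0 CPM in the Rasa1_KO-named libraries (blocked log2 2.17 ± 0.32, adjusted p = 0.0314). Gpi1, glucose phosphate isomerase, was at 501, 452 and 403 CPM against 1001, 955 and 955 CPM (blocked log2 1.11 ± 0.15, adjusted p = 0.0256). Pgam1 and Pfkfb3 were higher by a blocked log2 change of 1.06 and 1.16 (adjusted p = 0.0318 and 0.0405). The plot of log2 changes for glycolysis and glycogen shows the listed genes with the ratio in each pair.

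**Figure D3:**
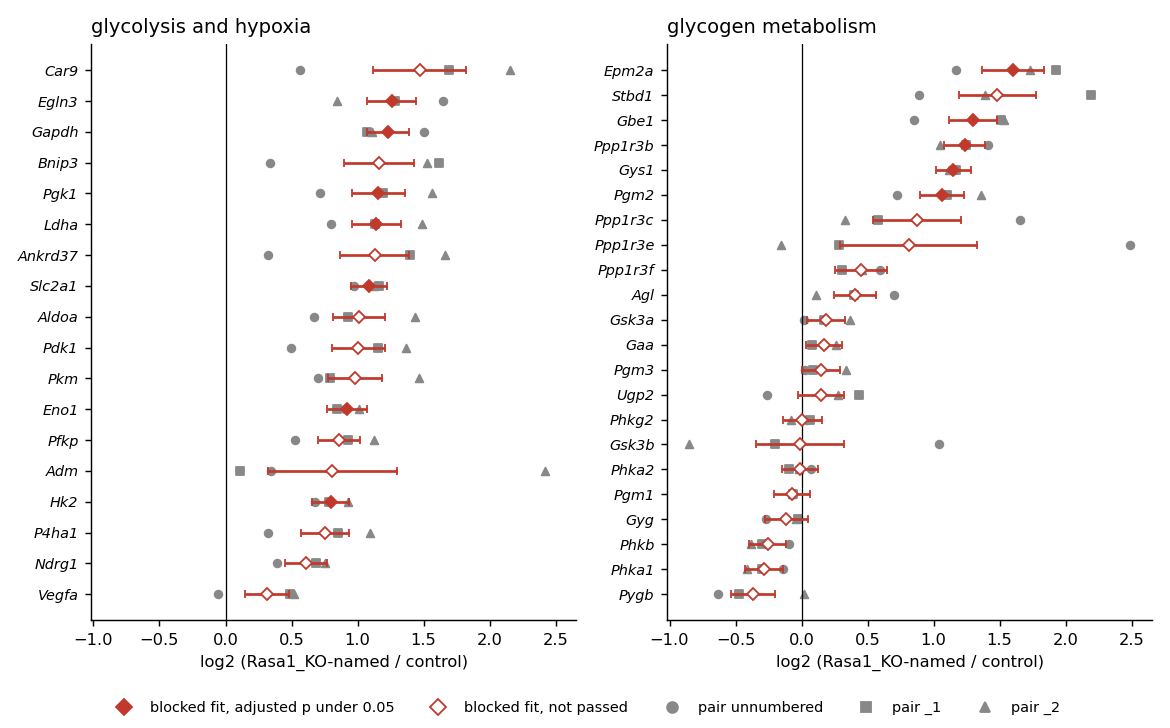
Log2 ratio of Rasa1_KO-named to control libraries for the genes of glycolysis and hypoxia (left) and of glycogen metabolism (right). Red diamonds with bars give the blocked estimate ± SE, filled where the adjusted p was under 0.05 (7 of 18 and 5 of 22 genes), and grey markers give the ratio within each same-numbered pair, which in Pgk1, Ldha and Hk2 is smallest in the unnumbered pair.

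Glycogen metabolism was read through a list of 27 genes written after values had been seen, of which 22 were tested. With Gys1, 5 of 22 passed in the blocked fit, all higher (1.24% of all genes). The median log2 change over the list was 0.17, and 7 of 22 were negative. Since the list was written after the values, its count is no separate evidence that glycogen genes changed as a group. Gbe1, the branching enzyme, was at 74.0, 47.5 and 48.8 CPM in the control libraries and at 133, 136 and 142 CPM in the Rasa1_KO-named libraries (blocked log2 1.30 ± 0.18, adjusted p = 0.0275). Epm2a, laforin, which removes phosphate from glycogen, was at 3.21, 1.96 and 2.59 CPM against 7.21, 7.47 and 8.57 CPM (blocked log2 1.60 ± 0.23, adjusted p = 0.0301). Ppp1r3b, which brings protein phosphatase to glycogen, was at 12.2, 8.06 and 9.70 CPM against 32.6, 19.1 and 20.1 CPM (blocked log2 1.24 ± 0.15, adjusted p = 0.0218). Pgm2 was the other gene that passed (blocked log2 1.06, adjusted p = 0.0350). The genes of breakdown did not pass, with Pygb, the brain-type phosphorylase, at a blocked log2 change of -0.37 ± 0.17 (adjusted p = 0.324).

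Since several of these genes were higher together, promoters were searched for the core letters of the hypoxia response element, ACGTG or GCGTG on either strand, in the 300 bases from 250 before to 50 after the 1 start a gene given in the RefSeq table. A promoter was found for 12504 of the 17642 genes tested, and 59.3% of them held a core. Of the glycolysis and hypoxia list 14 of 17 promoters held one, and 12 of 17 held more than 1 against 31.5% of all promoters. The string CACGTG holds a core on each strand and counts as 2. The list was chosen as genes of glycolysis and the response to low oxygen. More cores in it could therefore be there whatever these libraries show. Among the genes higher in the blocked fit, 59.6% of 156 promoters held a core, and among those lower, 41.0% of 100. The share for all genes higher thus lay near that of all promoters. Of the genes that passed in the unblocked fit, 5 of 8 promoters of those higher held a core, and 4 of 8 of those lower. Gys1, Mettl7b and Tpm2, which rose, held 0 cores, and Rasa1, which fell, held 3. Base composition was not matched, and a match is a string of letters and not a bound site. Shown here are the promoters of Ldha, which held 7 cores, of Pgk1, which held 2, and of Ak4, the gene of energy metabolism with the lowest adjusted p, which held 2 (its annotated gene begins upstream of the start used), in GRCm38.p6 on the plus strand, with the cores in capitals (overlapping cores run together) at chr7:46845554-46845853, chrX:106186850-106187149 and chr4:101419039-101419338.
Ldha: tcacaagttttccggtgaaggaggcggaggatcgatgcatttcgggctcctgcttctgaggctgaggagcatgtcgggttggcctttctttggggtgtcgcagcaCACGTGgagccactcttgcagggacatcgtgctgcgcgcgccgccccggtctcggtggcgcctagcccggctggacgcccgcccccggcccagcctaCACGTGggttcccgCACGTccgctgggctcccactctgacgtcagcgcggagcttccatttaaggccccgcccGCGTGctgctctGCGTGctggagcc
Pgk1: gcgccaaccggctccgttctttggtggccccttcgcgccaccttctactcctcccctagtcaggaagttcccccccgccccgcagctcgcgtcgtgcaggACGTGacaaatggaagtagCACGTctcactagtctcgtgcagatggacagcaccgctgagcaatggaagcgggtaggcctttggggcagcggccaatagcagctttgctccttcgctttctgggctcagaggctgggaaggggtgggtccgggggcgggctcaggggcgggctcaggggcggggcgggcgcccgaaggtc
Ak4: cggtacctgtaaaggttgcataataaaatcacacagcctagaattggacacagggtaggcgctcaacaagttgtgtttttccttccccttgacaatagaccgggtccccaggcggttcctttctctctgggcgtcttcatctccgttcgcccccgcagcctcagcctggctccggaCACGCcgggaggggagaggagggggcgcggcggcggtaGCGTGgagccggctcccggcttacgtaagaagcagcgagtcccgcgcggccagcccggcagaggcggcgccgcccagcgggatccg

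Proteases of the extracellular matrix and their inhibitors changed in both directions. Of 33 tested, 1 passed in the unblocked fit (0.102% of all genes) and 9 passed in the blocked fit. Of these 9, 7 were higher (1.24% of all genes) and 2 lower (0.72%). The stromelysins and the collagenase encoded together on chromosome 9 were higher. Mmp3 was at 8.49, 11.1 and 11.4 CPM in the control libraries and at 34.3, 21.7 and 25 CPM in the Rasa1_KO-named libraries (blocked log2 1.37 ± 0.23, adjusted p = 0.0402), Mmp10 at 3.80, 7.63 and 7.16 CPM against 11.4, 16.9 and 20 CPM (blocked log2 1.40, adjusted p = 0.0210) and Mmp13 at 30.2, 38.0 and 54.9 CPM against 92.2, 165 and 169.6 CPM (blocked log2 1.78, adjusted p = 0.0128). Mmp7, matrilysin, whose gene lies on the same chromosome, was lower, at 12.4, 47.1 and 48.3 CPM against 3.57, 13.7 and 13.3 CPM (blocked log2 -1.81 ± 0.14, adjusted p = 0.00873). The Mmp7 groups overlapped because the unnumbered control library held less than the _1 and _2 Rasa1_KO-named libraries, while every pair showed the fall.

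Urokinase and inhibitors of proteases were also higher. Plau, urokinase, was at 5.74, 7.52 and 7.62 CPM in the control libraries and at 13.4, 15.6 and 15.8 CPM in the Rasa1_KO-named libraries (blocked log2 1.11, adjusted p = 0.0298). Serpinb2, the inhibitor PAI-2, was at 0.216, 2.13 and 2.37 CPM against 1.92, 8.21 and 7.49 CPM (blocked log2 2.17, adjusted p = 0.0321), and Timp3, a matrix-bound inhibitor of metalloproteinases, at 19.9, 35.5 and 36.6 CPM against 53.1, 108 and 112 CPM (blocked log2 1.55, adjusted p = 0.0128). Per length, the mean levels in the Rasa1_KO-named libraries were 5.55 FPKM for Plau and 46.4 FPKM for Mmp13. Mmp15, a membrane-bound metalloproteinase, was lower (blocked log2 -1.07, adjusted p = 0.0275). Of the collagens, laminins and other matrix proteins, 1 of 34 rose and 1 fell in the blocked fit (1.24% and 0.72% of all genes). The gene that fell, Lamb3, a laminin subunit of the epithelial basement membrane, was at 228, 144 and 110.1 CPM against 124, 68.5 and 70.6 CPM (blocked log2 -0.87, adjusted p = 0.0405). Acan and Has2, which make aggrecan and hyaluronan and were chosen after their values were seen, were higher by a blocked log2 change of 2.38 and 2.20 (adjusted p = 0.0275 and 0.0132). None of 15 integrins passed in either fit (1 at a raw p under 0.05 in edgeR, 1 by DESeq2).

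**Figure D4:**
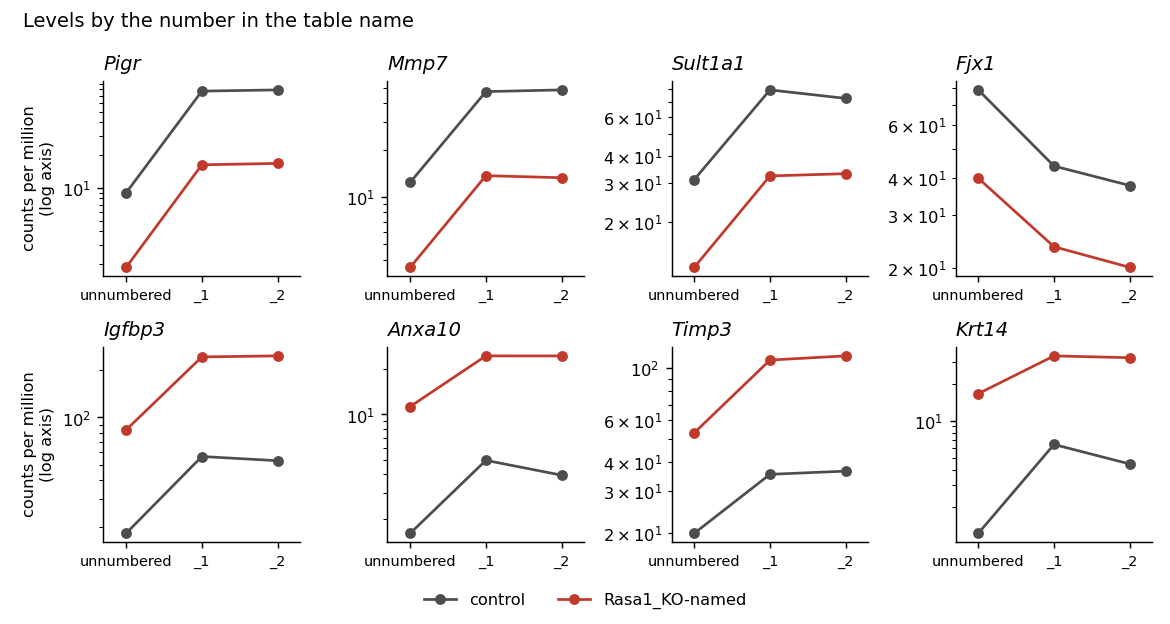
CPM (log axis) of 8 genes in the unnumbered, _1 and _2 libraries of the control (grey) and Rasa1_KO-named (red) groups. The 2 lines of each gene run apart and change together between the unnumbered and the numbered libraries. Each of these genes passed in the blocked fit and missed the threshold in the unblocked one.

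Few genes of Ras signaling passed in the unblocked or the blocked fit. Of 25 regulators of the Ras GTPase cycle, Rasa1 alone passed unblocked. Rasal1, another Ras GTPase-activating protein, was at 71.2, 83.2 and 73.5 CPM in the control libraries and at 47.9, 30.4 and 26.8 CPM in the Rasa1_KO-named libraries, and passed in the blocked fit (log2 -1.16 ± 0.21, adjusted p = 0.0474). Nf1, which encodes neurofibromin, spread from 85.7 to 266 CPM within the control libraries and did not pass (log2 0.06 ± 0.37, adjusted p = 0.969). Of 18 genes of ERK output and feedback, 0 passed unblocked. At a raw p under 0.05 there were 6, all higher (5.92% of all genes), and 3 passed by DESeq2 (4.81%). With the block of unnumbered against numbered libraries 5 passed, all higher (2.94% of all genes). In the blocked fit 2 passed, both higher (1.24% of all genes). Epha2, an ephrin receptor, was at 65.1, 89.3 and 66.5 CPM against 116, 159 and 149.7 CPM (blocked log2 0.95 ± 0.14, adjusted p = 0.0327), and Ier3, an immediate early gene, at 142, 99.4 and 75.1 CPM against 236, 196 and 175 CPM (blocked log2 0.98 ± 0.15, adjusted p = 0.0350). The ERK phosphatases had positive values that did not pass in the unblocked or the blocked fit. Unblocked, Dusp4 was at 0.51 ± 0.17, Dusp5 at 0.68 ± 0.20 and Dusp6 at 0.53 ± 0.13 on the log2 scale (adjusted p = 0.320, 0.259 and 0.177). Etv4, Etv5 and Spry4, which also read out ERK activity, had log2 values of 0.18, -0.07 and 0.19 (adjusted p = 0.741, 0.928 and 0.897). Among EGF-family ligands Areg, amphiregulin, was at 3.63, 4.41 and 3.59 CPM against 7.33, 10.5 and 11.3 CPM and passed in the blocked fit, as 1 of 13 genes (log2 1.30 ± 0.21, adjusted p = 0.0354). Of 16 Eph receptors and ephrins Epha2 alone passed, in the blocked fit.

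Most YAP and TAZ targets had positive values, and few passed. Of 22 tested, 16 had a positive log2 change, with a median of 0.22 against -0.04 over all genes. Unblocked, 0 passed, with 8 at a raw p under 0.05 (11.1% of all genes), 6 higher (5.92%) and 2 lower (5.15%), and 4 by DESeq2 (4.81%). In the blocked fit 2 rose (1.24% of all genes) and 1 fell (0.72%). Igfbp3, a carrier of insulin-like growth factors, was at 18.2, 56.3 and 52.9 CPM in the control libraries and at 83.3, 244 and 248 CPM in the Rasa1_KO-named libraries (blocked log2 2.18 ± 0.14, adjusted p = 0.00873). F3, tissue factor, was at 56.1, 53.5 and 56.9 CPM against 120.4, 174 and 182 CPM (blocked log2 1.5 ± 0.17, adjusted p = 0.0179), and Fjx1, which fell, at 78.9, 43.8 and 37.7 CPM against 39.9, 23.5 and 20.1 CPM (blocked log2 -0.93 ± 0.14, adjusted p = 0.0301). The common YAP reporters did not pass. Ccn1 was at 17.0, 59.3 and 55.8 CPM against 25.4, 102 and 105 CPM (log2 0.81 ± 0.62, adjusted p = 0.692, 0.0532 blocked), and Ccn2 at 159.8, 362 and 370.3 CPM against 203, 399.8 and 393 CPM (log2 0.16 ± 0.38, adjusted p = 0.922). Both were lowest in the unnumbered library of each group.

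Of 18 Wnt targets and stem-cell markers, Olfm4 alone passed unblocked, and Bmp4, a secreted growth factor of the TGF-beta family, passed in the blocked fit, at 24.8, 28.1 and 24.1 CPM in the control libraries and 43.0, 49.1 and 56.4 CPM in the Rasa1_KO-named libraries (log2 0.94 ± 0.16, adjusted p = 0.0391). Axin2, the feedback target of beta-catenin, was at 15.1, 24.2 and 23.6 CPM against 36.5, 26.0 and 24.1 CPM, with overlapping groups (log2 0.46 ± 0.25, adjusted p = 0.557). Ccnd1, cyclin D1, was at 117, 147 and 131 CPM against 152, 207 and 206 CPM and did not pass (log2 0.52 ± 0.18, adjusted p = 0.335). Wnt5a was low, at 0.151, 1.81 and 3.06 CPM against 2.71, 3.14 and 3.16 CPM (adjusted p = 0.760), and Aqp5, a marker of gastric stem cells, at 2.19, 3.37 and 1.9 CPM against 4.34, 2.32 and 2.75 CPM (adjusted p = 0.778). Igfbp4, a secreted Wnt inhibitor, had a log2 value of -0.41 ± 0.23 (adjusted p = 0.590). Of 15 members of the BCL2 family 0 passed in either fit (1 at a raw p under 0.05 in edgeR, 0 by DESeq2). Bcl2l1, which encodes Bcl-xL, was at 46.0, 59.6 and 60.4 CPM against 50.0, 55.9 and 49.3 CPM, with overlapping groups (log2 -0.10 ± 0.16, adjusted p = 0.874).

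Among genes of mucosal defence and detoxification, 6 of the 7 that passed in the blocked fit were lower. Of 12 tested genes of mucosal defence 2 passed in the blocked fit, both lower (0.72% of all genes), namely Pigr (blocked log2 -2.25 ± 0.14, adjusted p = 0.00873) and Lcn2. Lcn2, which encodes the iron-sequestering lipocalin, was at 1493, 1111 and 1126 CPM in the control libraries and at 554, 441 and 454 CPM in the Rasa1_KO-named libraries (blocked log2 -1.36 ± 0.15, adjusted p = 0.0176). Per length it remained abundant, at 1360 FPKM in the control libraries and 492 FPKM in the Rasa1_KO-named libraries on average. Of 28 genes of xenobiotic and aldehyde metabolism 5 passed in the blocked fit, 4 lower and 1 higher (0.72% and 1.24% of all genes). Besides Fmo1 and Fmo2, Gsta3, a glutathione transferase, was at 139, 81.7 and 65.0 CPM against 44.5, 28.2 and 29.8 CPM (blocked log2 -1.44, adjusted p = 0.0176) and Adh1, an alcohol dehydrogenase, at 2.94, 5.64 and 4.61 CPM against 0.468, 1.15 and 1.02 CPM (blocked log2 -2.36, adjusted p = 0.0176). Aldh1a1, a retinal dehydrogenase used as a stem-cell marker, was the member that rose, at 38.1, 31.8 and 30.2 CPM against 60.9, 59.3 and 59.7 CPM (blocked log2 0.85, adjusted p = 0.0402). Among 16 tested UDP-glucuronosyltransferases and sulfotransferases, a list written after values had been seen, 4 passed in the blocked fit, all lower (0.72% of all genes). Sult1a1 was at 31.2, 79.5 and 72.8 CPM against 12.5, 32.4 and 33.2 CPM (blocked log2 -1.25, adjusted p = 0.0176). The others were Ugt2b35, Ugt2b5 and Ugt2b36, which share a cluster on chromosome 5 and may share reads.

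Keratins and cornified envelope genes of stratified epithelium were a list of 38 genes also written after values had been seen. In the blocked fit 7 of 23 tested members were higher and 0 lower (1.24% and 0.72% of all genes), with a median log2 change of 0.85. Krt14, a basal keratin, was at 1.22, 6.43 and 4.46 CPM in the control libraries and at 16.6, 33.7 and 32.5 CPM in the Rasa1_KO-named libraries (blocked log2 2.98 ± 0.28, adjusted p = 0.0139). Sprr1a, a small proline-rich protein of the cornified envelope, was at 43.3, 63.7 and 36.9 CPM against 101, 146 and 129.6 CPM (blocked log2 1.41 ± 0.17, adjusted p = 0.0208), and Pkp1, a plakophilin of desmosomes, at 25.7, 22.3 and 19.4 CPM against 44.5, 51.8 and 50.3 CPM (blocked log2 1.13 ± 0.17, adjusted p = 0.0303). Trp63, the transcription factor of basal squamous cells, was low, at 0.898, 0.710 and 1.83 CPM against 0.868, 0.847 and 0.832 CPM (adjusted p = 0.768). Krt5 was not listed in the tables, so its level in these libraries is not known. Keratins and small proline-rich proteins have similar copies that can share reads. Anxa10, an annexin of gastric epithelium, was at 1.61, 4.94 and 3.94 CPM against 11.3, 24.6 and 24.6 CPM (blocked log2 2.58 ± 0.18, adjusted p = 0.00873), and Il33, an epithelial cytokine, at 71.0, 99.4 and 85.9 CPM against 143, 229.7 and 248 CPM (blocked log2 1.25 ± 0.16, adjusted p = 0.0214), and both were chosen after their values were seen. Of 16 tested genes of the gastric epithelial lineage 1 passed in the blocked fit, the trefoil factor Tff3, which was low at 0.0649, 0.793 and 0.428 CPM against 0.167, 3.99 and 4.48 CPM (log2 2.52 ± 0.43, adjusted p = 0.0405). Muc5ac, the mucin of gastric surface cells, was at 3.97, 7.15 and 7.60 CPM against 2.12, 1.38 and 1.37 CPM and did not pass (blocked adjusted p = 0.0531).

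Mesenchymal genes did not move as 1 group. Of 15 tested EMT factors and mesenchymal markers 2 passed in the blocked fit, both higher (1.24% of all genes). S100a4 was at 102, 104 and 86.8 CPM in the control libraries and at 252, 214 and 217 CPM in the Rasa1_KO-named libraries (blocked log2 1.22 ± 0.14, adjusted p = 0.0180), and Acta2, smooth muscle actin, at 1.35, 5.62 and 4.69 CPM against 8.57, 17.3 and 17.6 CPM (blocked log2 2.05 ± 0.24, adjusted p = 0.0207). Vim, vimentin, was at 939.9, 808 and 805 CPM against 1415, 1779 and 1737 CPM, with no overlap, and missed the threshold (blocked adjusted p = 0.0532). Epcam, the epithelial adhesion molecule, was at 63.9, 69.6 and 63.9 CPM against 24.0, 43.6 and 42.4 CPM (blocked log2 -0.89 ± 0.20, adjusted p = 0.0772). Of the 6 fibroblast markers tested, Dcn, decorin, was lower in the blocked fit, at 32.5, 75.2 and 79.0 CPM against 15.3, 13.1 and 13.7 CPM (log2 -2.05 ± 0.31, adjusted p = 0.0318). Col3a1 was at 39.4, 829.6 and 636 CPM against 97.5, 249.9 and 243 CPM (blocked adjusted p = 0.605), and Pdgfrb at 1.96, 19.4 and 15.1 CPM against 2.23, 4.17 and 4.39 CPM (blocked adjusted p = 0.207). The summed level of these markers ran from 75.1 to 942 CPM within the control libraries, and its part in the results for matrix and mesenchymal genes was not tested.

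Cell division was among the lists without a call in either fit. Of 22 genes of S phase and mitosis 21 had positive log2 values with a median of 0.45, and 0 passed in the unblocked or blocked fit. At a raw p under 0.05 by edgeR there were 11, all higher (5.92% of all genes), and 5 passed by DESeq2 (4.81%). With the block of unnumbered against numbered libraries 7 passed, all higher (2.94% of all genes). Top2a, the topoisomerase of dividing cells, was at 190.3, 164 and 148 CPM in the control libraries and at 260, 269 and 277 CPM in the Rasa1_KO-named libraries (log2 0.68 ± 0.15, adjusted p = 0.144), and Mki67 at 76.8, 119.7 and 114 CPM against 148, 163 and 168 CPM (log2 0.63 ± 0.19, adjusted p = 0.282). The 26 interferon and antigen presentation genes had 6 at a raw p under 0.05, all higher (5.92% of all genes). By edgeR 0 passed in either fit, and 2 passed by DESeq2 (4.81% of all genes). The class I gene H2-K1 was at 149, 142 and 84.7 CPM against 204, 236 and 234 CPM (log2 0.84 ± 0.23, adjusted p = 0.228). The 16 genes of ATF4 and the unfolded protein response had 3 at a raw p under 0.05, all higher (5.92% of all genes). In either fit 0 passed by edgeR, and 1 passed by DESeq2 (4.81% of all genes). The 3 driver genes of the tumor model and the 8 structural RNAs tested had 0 in both fits, 0 by DESeq2 and 0 at a raw p under 0.05 in the unblocked fit.

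The 18 genes were set against the other knockout groups in 1 fit of all 12 libraries, in contrasts that use no control library but use the Rasa1_KO-named libraries on which the 18 had passed. In that fit 15 of 18 differed from the NF2_KO-named libraries (32.2% of 18053 genes did) and 13 of 18 from the Do-named libraries (30.3%). Several of the falls were deeper in the other groups. Tmc5, at 17.2 CPM on average in the Rasa1_KO-named libraries, averaged 0.942 ± 0.163 CPM in the NF2_KO-named and 1.54 ± 0.137 CPM in the Do-named libraries (SD, n = 3 each, adjusted p = 9.77e-09 and 4.77e-08). Cftr averaged 10.1 CPM against 0.962 and 1.95 CPM (adjusted p = 2.42e-06 and 3.79e-05), and Igfbp5 averaged 2.94 CPM against 0.252 and 0.367 CPM (adjusted p = 5.47e-06 and 2.60e-05). Olfm4 was nearly absent in both, at 0.0659 and 0.137 CPM against 2.56 CPM (adjusted p = 7.90e-06 and 3.66e-05).

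Other genes were ordered differently. Fmo2 was lower in the Rasa1_KO-named libraries than in either other group, at 0.582 CPM against 1.70 and 1.03 CPM (adjusted p = 0.00164 and 0.04997). Lratd1 was higher in them than in either, at 15.1 CPM against 1.47 and 5.56 CPM (adjusted p = 1.81e-06 and 0.000625). Ak4 was higher than in the Do-named libraries, at 70.4 CPM against 42.8 CPM (adjusted p = 0.000305), and its difference from the 58.2 CPM of the NF2_KO-named libraries did not pass (log2 0.27 ± 0.10, adjusted p = 0.0517). Ero1l stood between the control and the other knockout libraries, at 1061 CPM against 2283 and 2100 CPM (adjusted p = 0.000110 and 0.000362). Rasa1 itself was lower than in the Do-named libraries, at 20.6 CPM against 31.9 CPM (adjusted p = 0.00322), and lower than in the NF2_KO-named libraries, which averaged 98.5 CPM (adjusted p = 3.66e-07).

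**Figure D5:**
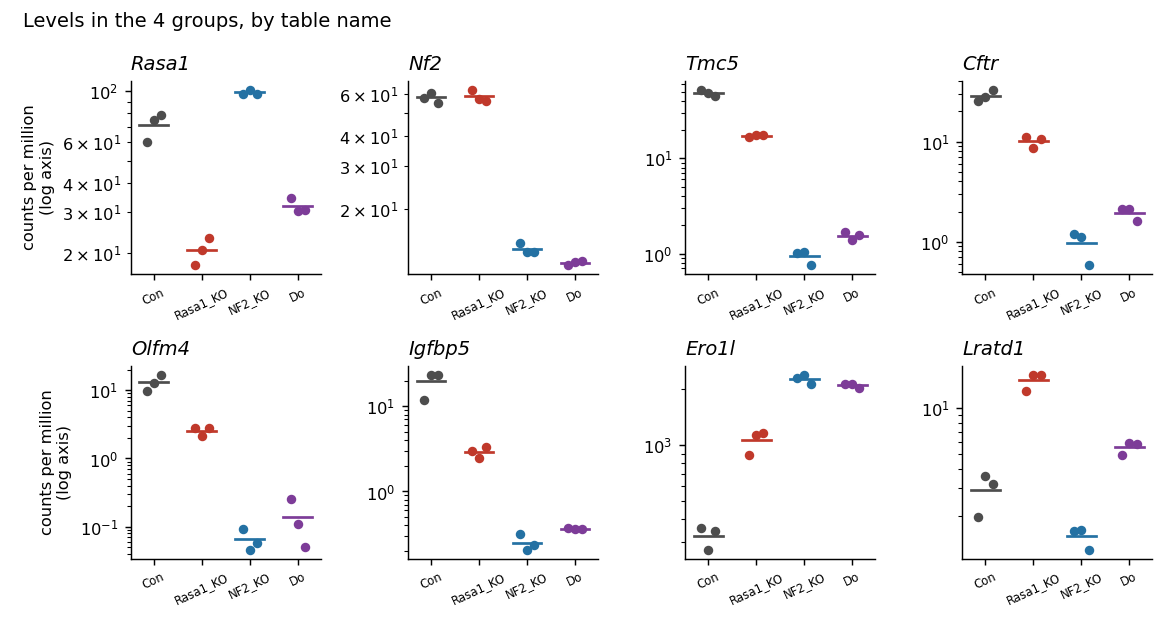
CPM (log axis, scaled over all 12 libraries) of 8 genes in the control (Con), Rasa1_KO-named, NF2_KO-named and Do-named libraries, 3 points a group with a line at the mean. Rasa1 is low in the Rasa1_KO-named and Do-named libraries, Nf2 in the NF2_KO-named and Do-named ones, and Tmc5, Cftr, Olfm4 and Igfbp5 are lowest in the NF2_KO-named and Do-named libraries.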

How the data were processed

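Total RNA was sequenced after stranded library preparation with depletion of ribosomal RNA. Per the submitters' processing notes, the tools were Trimmomatic 0.38, HISAT2 2.1.0, SAMtools 1.9 and StringTie 2.1.3b, with build mm10. The authors deposited 1 table a library with read counts, FPKM and TPM per gene, and no listed gene is at 0 in any table. The deposited counts were tested and the deposited FPKM values used only to compare levels between genes. TPM and normalised log2 columns were not used.

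Genes passing filterByExpr were tested with edgeR 4.0.16 in R 4.3.3 (quasi-likelihood, TMM, Benjamini-Hochberg, threshold 0.05, 3 control and 3 Rasa1_KO-named libraries), without a block, since the study states none, and with the number in the table name as a block. The pairing rests on the data alone: each same-numbered pair correlated above 0.1 in its deviations, as did _1 with _2 libraries, so the data separate only unnumbered from numbered libraries. The libraries were grouped by label, which the 3 tables of a label share, and are called by table name. DESeq2 1.42.0, RLE size factors, no filter, all 12 libraries in 1 fit and leaving out each library were alternatives. The code was tested on simulated data. CPM used effective library sizes.

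Named genes were Rasa1, Nf2, all genes that passed (fewer than 12 in each direction, each above 3 counts in every library and without overlap), members of the lists, and genes the study measured. Values of some genes that passed are not reported here, while the counts include them. Members and lists were chosen with earlier results of these data known, 3 lists (glycogen, stratified epithelium, glucuronosyltransferases and sulfotransferases) after the values were seen. Promoters and coordinates came from RefSeq for GRCm38.p6 by symbol. Counting error was not modelled apart from the spread between libraries.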

Additional observations from a re-analysis of the deposited data

How the results depend on the processing

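The number of genes passing an adjusted p of 0.05 differed between the alternatives. It was 18 in the unblocked edgeR fit, 6 without a filter on low counts, 769 with DESeq2, 1166 with all 12 libraries in the fit and 346 with a replicate block by the numbers in the table names. Leaving out 1 library gave 0 to 1503 genes, with 1503 without the unnumbered control library and 0 without any other. After the data were seen, 2 alternatives were added: 2672 genes passed without both unnumbered libraries and 839 with a block of unnumbered against numbered libraries. The rule of 3-fold with a raw p under 0.05 took 208 genes, 318 with DESeq2, 367 with all 12 libraries, 581 without both unnumbered libraries, and 179 to 696 when 1 library was left out. The cause of these differences was not tested. All 18 genes kept their direction in every alternative run, which their lack of overlap nearly fixes in advance. All 18 passed in each but the fit without a filter, where 6 of 18 did, and the fits without Con_1, Con_2 or 1 of the Rasa1_KO-named libraries. The log2 change of Rasa1 was -1.90 to -1.72 when 1 library was left out, with an adjusted p of up to 0.358 (edgeR), and that of Nf2 -0.05 to 0.05.

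The sample titles of the Rasa1_KO-named libraries carry another group name and other numbers than their table names. A replicate block by the title numbers, shared by only 2 pairs, gave 2916 genes and 896 by the rule of 3-fold. The deviations of these pairs correlated at -0.57 and 0.48, so not every pair deviated together and no result rests on this block. The group size of 3 libraries limits the precision, and the shallowest library held 43818139 counts.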
